A study of Mus musculus with 90 samples.

Results

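The genes of the G2 phase and of mitosis were followed in RAW 264.7 cells, a mouse macrophage line, exposed to inflammatory stimuli. They were taken from a list of 45 gene symbols. A symbol counted as measured where a probe of the array carried it as its gene, and 37 of the 45 were measured and tested, among 11600 tested features (9760 genes and 1840 probes without a gene name). Ccnb1, Plk1, Espl1, Kif2c, Cenpe, Ncapd2, Ncaph and Anln had no probe that named them and were not analysed here.

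Cells were treated with lipopolysaccharide (LPS, a bacterial outer membrane component) at 100 ng/ml together with interferon gamma (IFG) at 5 nM, with LPS at 100 ng/ml together with 2-methyl-thio-ATP (2MA, an ATP analogue that acts on purine receptors) at 500 µM, or with LPS, IFG or 2MA alone at the same doses. Treatment lasted 1, 2 or 4 h, and the reference was RNA of cells kept in medium for the same time. The labels list lipid binding protein at 100 pM beside LPS alone and not beside the combinations. Each treated RNA was hybridised with its untreated RNA to dual-colour custom Agilent arrays, in 3 numbered sets per condition with both dye orientations, so 90 arrays gave 45 replicates in 15 conditions. All values are log2 ratios of treated over untreated RNA, given for replicates 1, 2 and 3 or as a mean ± SD (n = 3 unless stated). A gene passed the test, and is said to have fallen or risen, where limma's Benjamini-Hochberg adjusted p over all features was under 0.05; a 2-fold change needed a mean log2 ratio of at least 1 in size as well. The labels do not say whether sets were separate cultures or whether treatments shared untreated RNA, so p-values measure the spread between these samples, which may be technical.

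Mitosis is started by cyclin-dependent kinase 1 with its A- and B-type cyclins, once Cdc25 phosphatases have removed inhibitory phosphates from the kinase. Kinesins and kinetochore proteins then build the spindle, the spindle checkpoint holds cells until every chromosome is attached, and the anaphase-promoting complex (APC/C) destroys securin and cyclins so that sister chromatids part and the cell divides. Most of these genes are transcribed in a wave late in the cell cycle, through promoters that often hold a cell cycle genes homology region (CHR), bound by DREAM and by complexes with Mybl2 and Foxm1, and CCAAT boxes, bound by NF-Y. RAW 264.7 cells divide in culture, and slowed proliferation of macrophages under LPS or interferon gamma is well known.

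The members share promoter letters that the list was not chosen by. Promoter windows of 300 bases, from 250 before to 50 after the start site of a gene, were taken from RefSeq (GRCm38.p6), which held one for 28 of the 37 genes. Ccna2, Cdc25c, Foxm1, Kif20a, Tpx2, Incenp, Aurkb, Smc4 and Esco2 had none. Of these, Esco2, Kif20a and Ccna2 had the lowest means of all members over the 5 treatments at 4 h. The mean of Aurkb lay above that of Bub3. The CHR letters (TTTGAA or TTCGAA, either strand) were in 23 of the 28 windows (82.1%), against 19.4% of all 27025 windows in the table, and CCAAT on either strand was in 25 (89.3%), against 37.9%. Both were in 23 (82.1%), against 7.70% of all windows, and the E2F letters (TTTGGCGC or TTTCGCGC) were in 1, that of Cdk1, or 3.57%, against 0.833%. No overlap between these motifs was removed. A match is a description of letters and not a bound site. Among genes with a window, those of the 4 with the lowest mean over the 5 treatments at 4 h are printed, and those of the 2 with the highest, Bub3 and Pttg1, in the direction of the gene, with CHR and CCAAT letters of either strand in capitals.
Cenpf, chr1:189688037-189688336, minus strand: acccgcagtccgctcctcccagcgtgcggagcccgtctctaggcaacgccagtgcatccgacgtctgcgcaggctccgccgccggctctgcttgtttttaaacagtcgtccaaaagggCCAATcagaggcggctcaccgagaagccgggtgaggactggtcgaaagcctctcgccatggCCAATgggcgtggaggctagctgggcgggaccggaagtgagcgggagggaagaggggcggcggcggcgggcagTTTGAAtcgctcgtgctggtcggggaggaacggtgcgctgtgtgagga
Mki67, chr7:135716330-135716629, minus strand: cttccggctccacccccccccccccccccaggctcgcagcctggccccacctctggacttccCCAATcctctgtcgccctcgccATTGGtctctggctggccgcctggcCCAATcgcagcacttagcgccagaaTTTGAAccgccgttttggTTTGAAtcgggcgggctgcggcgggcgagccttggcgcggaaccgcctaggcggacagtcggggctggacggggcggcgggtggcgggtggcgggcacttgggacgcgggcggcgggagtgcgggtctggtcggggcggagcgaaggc
Cdc20, chr4:118437294-118437593, minus strand: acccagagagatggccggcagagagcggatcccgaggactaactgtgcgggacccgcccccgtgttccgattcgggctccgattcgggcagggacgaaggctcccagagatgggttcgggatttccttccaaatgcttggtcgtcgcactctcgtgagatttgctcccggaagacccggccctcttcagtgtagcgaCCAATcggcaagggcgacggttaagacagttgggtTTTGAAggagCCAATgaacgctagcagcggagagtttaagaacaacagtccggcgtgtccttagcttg
Ect2, chr3:27153829-27154128, minus strand: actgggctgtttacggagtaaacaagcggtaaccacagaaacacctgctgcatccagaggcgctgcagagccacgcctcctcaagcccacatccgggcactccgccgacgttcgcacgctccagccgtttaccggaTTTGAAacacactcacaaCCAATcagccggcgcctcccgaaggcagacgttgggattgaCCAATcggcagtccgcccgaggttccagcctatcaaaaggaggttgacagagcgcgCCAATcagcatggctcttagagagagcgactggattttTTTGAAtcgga
Bub3, chr7:131560120-131560419, plus strand: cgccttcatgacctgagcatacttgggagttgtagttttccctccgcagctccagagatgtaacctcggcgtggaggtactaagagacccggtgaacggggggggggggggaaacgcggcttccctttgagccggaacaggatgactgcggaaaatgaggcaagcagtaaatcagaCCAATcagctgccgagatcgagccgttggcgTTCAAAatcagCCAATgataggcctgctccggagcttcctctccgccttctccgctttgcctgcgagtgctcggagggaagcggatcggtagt
Pttg1, chr11:43425932-43426231, minus strand: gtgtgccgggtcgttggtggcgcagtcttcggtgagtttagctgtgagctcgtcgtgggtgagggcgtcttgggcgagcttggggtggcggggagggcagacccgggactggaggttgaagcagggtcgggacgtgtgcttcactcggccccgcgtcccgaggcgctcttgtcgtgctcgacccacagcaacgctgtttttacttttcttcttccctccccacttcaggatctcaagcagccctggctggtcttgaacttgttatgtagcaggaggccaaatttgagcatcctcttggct
In Cdc20 the CHR letters began 18 bases before the start site and the nearer CCAAT letters 8 bases before it, and in Cenpf the CHR letters began 2 bases after it. Bub3, which passed in no condition, held 1 CHR match and 2 CCAAT matches. The window of Pttg1, the single gene that rose, held none of the 3 motifs, as did those of Mad2l1 and Birc5, which fell with LPS at 4 h.

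The direction of the deposited ratio is not stated in the labels and was taken as Cy5 over Cy3, so every direction below is likely rather than known. With it, 6 of 6 measured genes known to respond to LPS had ratios above 0 at 4 h of LPS (median 3.74) and 3 of 3 known to respond to IFG at 4 h of IFG (median 3.86). Ratios carry no level, so the presence of macrophage markers could not be checked as such. Of 8 tested macrophage markers, 5 rose and 1 fell with LPS+IFG at 4 h, and of 21 tested markers of T cells, B cells, fibroblasts, epithelium and endothelium 1 rose and 0 fell (limma; at an unadjusted p under 0.05, 2 and 0). Over all features, 14.9% rose and 18.5% fell in that condition. In RNA of whole cultures, fewer cells in G2 or mitosis and less of these RNAs per cell cannot be told apart.

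Most of the mitotic genes fell by 4 h with every treatment but 2MA. At 4 h, 34 of 37 fell with LPS+IFG, 33 with LPS+2MA, 32 with LPS, 26 with IFG and 1 with 2MA. Over all features, the share that fell was 18.5%, 18.1%, 15.5%, 5.68% and 0.534% in the same order. A 2-fold fall was reached by 12 members with LPS+IFG (2.13% of all features at 4 h), 8 with LPS+2MA (1.9%), 5 with LPS (1.17%), 1 with IFG (0.172%) and 0 with 2MA (0.0345%). At 2 h, Esco2 and Kif23 had fallen by that much with LPS+IFG (2 members, 0.741%). One member, Pttg1, rose with LPS+IFG, LPS+2MA and LPS (14.9%, 14.7% and 12.5% of all features rose), and none rose with IFG (6.11%) or 2MA (1.31%). Its rise was 2-fold with LPS+IFG (4.58%). At an unadjusted p under 0.05, 0 rose with IFG or 2MA, while 32 were lower with IFG and 7 with 2MA. With 2MA, 34 of the 37 means lay below 0.

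The median of the 37 mean ratios at 4 h was -0.86 with LPS+IFG, or 54.9% of the untreated level, -0.66 with LPS+2MA, -0.61 with LPS, -0.51 with IFG and -0.15 with 2MA. The median over all features lay between -0.014 and 0.0025 in these conditions. Replicate by replicate, the members' median was -0.99, -1.04 and -0.63 with LPS+IFG, -0.81, -0.78 and -0.44 with LPS+2MA, -0.64, -0.66 and -0.49 with LPS, -0.53, -0.68 and -0.33 with IFG and -0.21, -0.21 and -0.090 with 2MA. Replicate 3 was nearest to 0 in all 5 conditions. Without replicate 3 of a condition, 34 members fell with LPS+IFG, 33 with LPS+2MA, 31 with LPS and 26 with IFG. With either dye orientation alone, 28 to 33 members fell with LPS+IFG, LPS+2MA and LPS, and 21 to 29 with IFG.

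**Figure D1:**
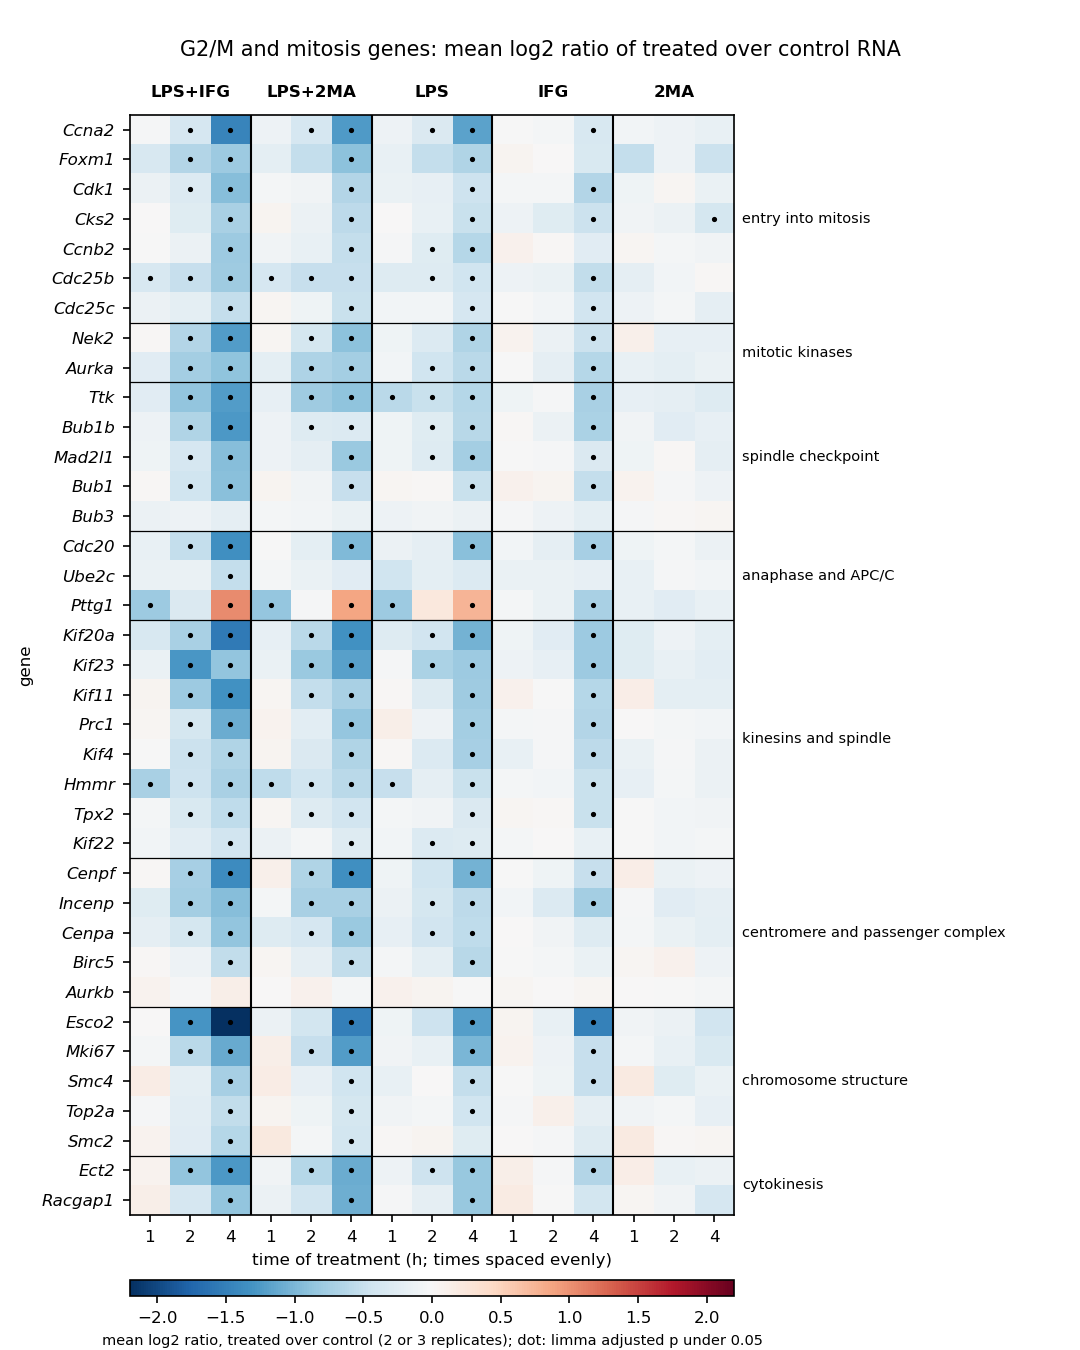
Mean log2 ratio of treated over untreated RNA (colour) for each of the 37 measured G2/M and mitosis genes (down the page, grouped by role) at 1, 2 and 4 h of the 5 treatments (across); a dot marks limma's adjusted p under 0.05. Most cells of the 4 h columns are blue, palest with 2MA, Pttg1 is red at 4 h of the 3 treatments with LPS, and Bub3 and Aurkb carry no dot.

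**Figure D2:**
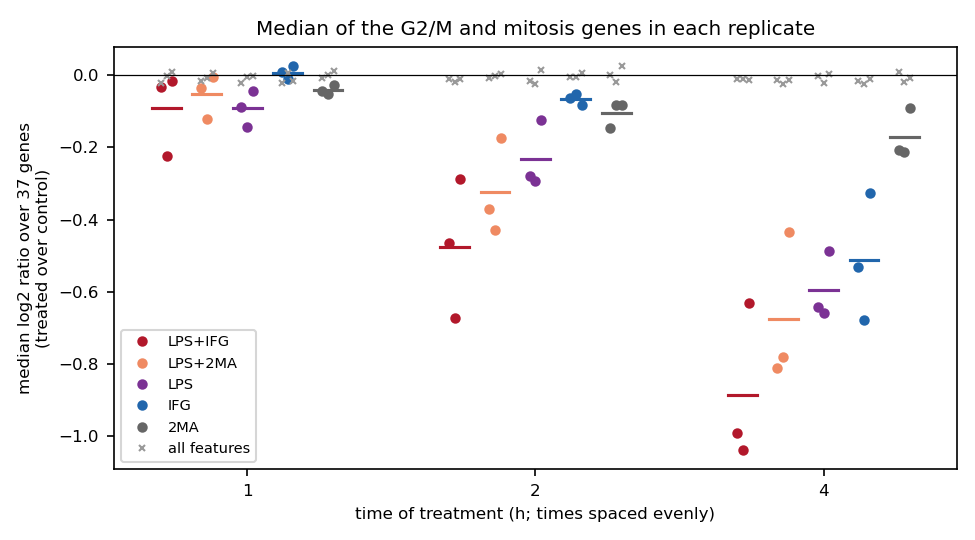
Median log2 ratio of the 37 genes in each replicate (filled points) with the mean of the 3 replicate medians (bars), at 1, 2 and 4 h of each treatment; grey crosses are the medians over all features. At 4 h the LPS+IFG replicates lie between -1.04 and -0.63 and the 2MA replicates between -0.21 and -0.090.

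LPS+IFG gave the lowest of the 5 means at 4 h in 28 of the 37 members. The same count was not made over all features, so no share stands beside it. In the direct test against LPS at 4 h, 2 members were lower, or 12 with the replicate block described further on. Of all 37, 35 passed in at least 1 of the 15 conditions, 15 of them with a 2-fold change, and Bub3 and Aurkb passed in none. The labels do not say whether treatments of the same time used the same untreated RNA. Their values are given side by side first, and the tests between treatments further on carry this limit.

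Genes that start mitosis fell as a group. All 7 measured of 8 fell at 4 h with LPS+IFG (18.5% of all features), LPS+2MA (18.1%) and LPS (15.5%). With IFG 5 fell (5.68%), and 1 with 2MA (0.534%). Ccna2, which encodes cyclin A2, was the lowest of them with LPS+IFG, LPS+2MA and LPS: its log2 ratios at 4 h were -1.67, -1.71 and -0.96 with LPS+IFG, -1.36, -1.51 and -0.88 with LPS+2MA, -1.32, -1.24 and -0.96 with LPS, -0.28, -0.54 and -0.25 with IFG and -0.20, -0.15 and -0.16 with 2MA. Every replicate lay below 0, and the IFG replicates lay above all of the LPS and LPS+IFG ones. The LPS+IFG mean was -1.45 ± 0.42, or 36.6% of the untreated level (adjusted p = 8.39e-14), and the IFG mean -0.36 ± 0.16 (adjusted p = 0.0219, lost without replicate 1 or 2). Cdk1, the kinase that cyclin A2 and the B cyclins activate, stood at -0.94 ± 0.35 with LPS+IFG, -0.46 ± 0.24 with LPS and -0.64 ± 0.27 with IFG, and fell in each. Ccnb2, for a B-type cyclin, fell to -0.80 ± 0.22 with LPS+IFG, while its IFG mean of -0.25 did not pass (adjusted p = 0.063).

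Foxm1, the transcription factor that drives many late cell cycle genes, fell with LPS+IFG, LPS+2MA and LPS (-0.80 ± 0.48, -0.90 ± 0.41 and -0.66 ± 0.44) and did not pass with IFG (-0.33 ± 0.54, adjusted p = 0.355). The Cdk subunit gene Cks2 was the one member that fell with 2MA at 4 h (-0.66, -0.22 and -0.29, mean -0.39, adjusted p = 0.0349), and it did not pass there without replicate 1, without replicate 3 or with only the 2MA replicates fitted. The phosphatase gene Cdc25c changed least among these genes with LPS+IFG, giving -0.69, -0.73 and -0.18 at 4 h (adjusted p = 0.000933). Replicate 3 lay nearest to 0. A second Cdc25c probe, left out because of missing values, averaged 0.068 there, and with both probes the mean was -0.23 (adjusted p = 0.212), so the fall rests on the probe kept. At 4 h the probe left out averaged 0.15 with LPS, 0.16 with IFG and -0.18 with LPS+2MA. With both probes the LPS and IFG means were -0.11 and -0.12 (adjusted p = 0.669 and 0.693). The LPS, LPS+2MA and IFG calls of Cdc25c were each lost without replicate 1 or without replicate 2.

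Both measured mitotic kinase genes fell at 4 h with LPS+IFG (18.5% of all features), LPS+2MA (18.1%), LPS (15.5%) and IFG (5.68%). Nek2, whose product acts in centrosome separation, gave -1.61, -1.29 and -0.81 with LPS+IFG, -0.95, -0.46 and -0.54 with LPS and -0.61, -0.69 and -0.14 with IFG. All 9 of these replicates were below 0, and each LPS+IFG replicate was below the LPS replicate of the same number. Its LPS+IFG mean was -1.24 ± 0.40 (adjusted p = 1.26e-09). The LPS and IFG calls of Nek2 were lost with exact zeros kept as 0 (adjusted p = 0.0798 and 0.349), and the IFG call also without replicate 1 (0.131), without replicate 2 (0.161), in the Cy5 orientation alone (0.283) and with no filter on missing values (0.228). A second Nek2 probe, left out because of missing values, averaged -0.14 with LPS+IFG. Aurka, for the spindle pole kinase Aurora A, gave -1.11, -0.94 and -0.60 with LPS+IFG, -0.69, -0.58 and -0.52 with LPS and -0.68, -0.75 and -0.42 with IFG. It had already fallen at 2 h with LPS+IFG, to -0.75 ± 0.23 (adjusted p = 4.87e-07), and with LPS, to -0.43 ± 0.17.

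The spindle checkpoint delays anaphase until kinetochores are attached, and 4 of its 5 genes fell in each of LPS+IFG, LPS+2MA, LPS and IFG at 4 h. Over all features, 18.5%, 18.1%, 15.5% and 5.68% fell in the same order. Bub1b, for the checkpoint protein BubR1, gave -1.29, -1.35 and -1.14 with LPS+IFG, -0.39, -0.21 and -0.32 with LPS+2MA and -0.83, -0.66 and -0.36 with LPS. The LPS+IFG replicates all lay below the LPS ones, and the LPS+2MA replicates lay between -0.39 and -0.21. Its means were -1.26 ± 0.11 with LPS+IFG (adjusted p = 1.41e-16), -0.30 ± 0.090 with LPS+2MA (adjusted p = 0.00119) and -0.69 ± 0.17 with IFG (adjusted p = 4.16e-09). Ttk, which encodes the checkpoint kinase Mps1, gave -1.28, -1.44 and -0.95 with LPS+IFG, while LPS+2MA gave -0.84, -1.08 and -0.73, and its LPS+IFG mean was -1.23 ± 0.25 (adjusted p = 6.07e-09). With IFG it gave -0.50, -1.14 and -0.51, with replicate 2 lowest. A second Ttk probe, left out because of missing values, averaged -0.46 with LPS+IFG, -0.37 with LPS and -0.24 with IFG. The 2-fold fall of Ttk thus rests on the probe kept. Mad2l1, for the inhibitor that holds Cdc20, fell to -0.95 ± 0.11 with LPS+IFG and the kinase gene Bub1 to -0.93 ± 0.18. Bub3, the checkpoint's binding adaptor, did not pass anywhere: with LPS+IFG it gave 0.055, -0.36 and -0.31 (adjusted p = 0.0695). Replicate 1 lay above 0 and the others below, and Bub3 passed with the replicate block described further on (-0.20, adjusted p = 0.0419), without replicate 1 (adjusted p = 0.0113) and in the Cy5 orientation alone (-0.42, adjusted p = 0.00595).

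The anaphase genes split. Cdc20, which activates the APC/C, gave -1.73, -1.53 and -0.77 with LPS+IFG, -1.26, -1.40 and -0.27 with LPS+2MA and -1.14, -1.13 and -0.48 with LPS. Replicate 3 was nearest to 0 in each, and all 9 values were negative. Its LPS+IFG mean was -1.35 ± 0.50, or 39.3% of the untreated level (adjusted p = 8.01e-09), and with IFG it fell to -0.72 ± 0.31. Ube2c, the APC/C's ubiquitin-conjugating enzyme, passed in a single condition, 4 h of LPS+IFG (-0.54, -1.06 and 0.0071, adjusted p = 0.0356), in which replicate 2 was lowest and replicate 3 near 0.

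Pttg1, which encodes securin, the inhibitor of the protease that parts sister chromatids, moved against the rest. At 4 h it gave 1.06, 0.99 and 1.05 with LPS+IFG, 0.44, 0.98 and 1.22 with LPS+2MA and 0.48, 1.09 and 0.68 with LPS, so every replicate was above 0. With IFG it gave -1.19, -0.57 and -0.36 and with 2MA -0.50, 0.092 and -0.090, so IFG alone lay on the other side of 0 from IFG with LPS. The means were 1.03 ± 0.035 with LPS+IFG, or 205% of the untreated level (adjusted p = 2.57e-07), 0.88 ± 0.40 with LPS+2MA (adjusted p = 5.54e-06), 0.75 ± 0.31 with LPS (adjusted p = 7.83e-05) and -0.70 ± 0.43 with IFG (adjusted p = 0.000487). The gene was measured by 1 probe, and the size differed by dye: at 4 h of LPS+IFG the mean was 0.60 with treated RNA in Cy5 and 1.47 with it in Cy3. The LPS call was lost on the Cy5 arrays alone (0.45, adjusted p = 0.0522), and the IFG call on the Cy3 arrays alone (-0.46, adjusted p = 0.0884) and without replicate 1 (adjusted p = 0.0819).

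All 8 measured kinesin and spindle genes fell at 4 h with LPS+IFG (18.5% of all features), LPS+2MA (18.1%) and LPS (15.5%). With IFG 7 fell (5.68%). Kif20a, a kinesin of the central spindle, gave -1.73, -1.77 and -1.16 with LPS+IFG, -1.44, -1.77 and -0.79 with LPS+2MA, -1.24, -1.29 and -0.57 with LPS and -0.80, -1.06 and -0.56 with IFG. All 12 replicates were below 0, and its LPS+IFG mean was -1.55 ± 0.34, or 34.1% of the untreated level (adjusted p = 4.8e-11). Kif11, the kinesin that pushes spindle poles apart, gave -1.58, -1.42 and -0.999 with LPS+IFG, while LPS gave -1.05, -0.56 and -0.76, and the mean with LPS+IFG was -1.33 ± 0.30 (adjusted p = 4.49e-11). Its LPS+2MA call was lost on the Cy5 arrays alone (-0.38, adjusted p = 0.0567).

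Kif23, the kinesin of centralspindlin, was lower with LPS+IFG at 2 h than at 4 h: it gave -1.41, -1.48 and -0.92 at 2 h and -0.71, -1.06 and -0.83 at 4 h. With LPS+2MA it gave -1.04, -1.13 and -0.28 at 2 h and -1.35, -1.42 and -0.83 at 4 h, and so stood lower at the later time in each replicate. The difference between these times was not tested. The spindle midzone gene Prc1 gave -1.12, -1.16 and -0.98 with LPS+IFG and -0.70, -0.79 and -0.42 with IFG. The LPS+IFG replicates were all below every IFG one, and the LPS+IFG mean was -1.09 ± 0.093 (adjusted p = 8.37e-12). Kif22, a chromosome-arm kinesin, changed least of them with LPS+IFG, giving -0.69, -0.32 and -0.27 at 4 h (adjusted p = 0.000177) and an IFG mean of -0.17 that did not pass. Its LPS call (-0.28) was lost without replicate 1, 2 or 3 (adjusted p = 0.0512, 0.0983 and 0.0561). It was also lost on the Cy5 arrays alone (0.0507), with the spread of arrays scaled to be equal (0.0786) and with only the LPS replicates fitted (0.088). The LPS+2MA call was lost without replicate 1 (0.116), on the Cy5 arrays alone (0.0636) and with the spread scaled (0.0537). Kif4, Hmmr and the spindle assembly factor Tpx2 fell to means between -0.72 and -0.55 with LPS+IFG. The 2 probes of Hmmr differed by 0.85 there, -1.14 against -0.29. At 4 h the weaker probe averaged -0.069 with LPS, -0.064 with LPS+2MA and -0.14 with IFG. The other averaged -0.90, -1.11 and -0.83 in the same order.

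At centromeres, Cenpf, a kinetochore protein that accumulates in G2, gave -1.51, -1.66 and -1.0 with LPS+IFG, -1.52, -1.51 and -1.0 with LPS+2MA, -0.94, -1.31 and -0.87 with LPS and -0.46, -0.79 and -0.29 with IFG. The IFG replicates were all above the others. Its means were -1.39 ± 0.35 with LPS+IFG (adjusted p = 3.08e-09) and -0.51 ± 0.26 with IFG (adjusted p = 0.0245, lost without replicate 1 or 2). Of the chromosomal passenger complex, which corrects faulty attachments, the scaffold gene Incenp fell to -0.94 ± 0.11 with LPS+IFG and -0.75 ± 0.17 with IFG. Cenpa, the centromeric histone H3 variant, fell to -0.86 ± 0.37 with LPS+IFG and -0.82 ± 0.34 with LPS+2MA. Birc5, for survivin, fell with LPS+IFG (-0.55 ± 0.20) and not with IFG (-0.14, adjusted p = 0.445). The complex's kinase gene Aurkb gave 0.16, 0.092 and 0.13 with LPS+IFG, -0.030, 0.010 and 0.0011 with LPS and -0.044, 0.11 and 0.076 with IFG. These values stayed within 0.16 of 0, and Aurkb passed in none of 15 conditions, although with exact zeros kept as 0 it was higher at 4 h of LPS+IFG (0.13, adjusted p = 0.0461). Its 2 probes had opposite signs at 4 h of LPS+IFG (-0.0024 and 0.25), the only such case among 12 members with several probes kept. Members with a probe left out for missing values, such as Cdc25c, are not among the 12.

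Esco2, the acetyltransferase that establishes cohesion between sister chromatids, was the lowest member of all. It gave -2.11, -1.81 and -2.68 with LPS+IFG, -1.42, -1.31 and -1.76 with LPS+2MA, -1.29, -0.76 and -1.57 with LPS, -1.43, -1.68 and -1.33 with IFG and -0.34, -0.45 and -0.47 with 2MA. The LPS+IFG replicates all lay below those of LPS and of IFG. Its means were -2.20 ± 0.44 with LPS+IFG, or 21.8% of the untreated level (adjusted p = 5.54e-13), and -1.48 ± 0.18 with IFG, or 35.9% (adjusted p = 4.29e-08), the only 2-fold fall with IFG alone. Mki67, the proliferation marker Ki-67 that coats mitotic chromosomes, gave -1.15, -1.37 and -0.83 with LPS+IFG, while LPS+2MA gave -1.40, -1.51 and -0.75. Its means were -1.12 ± 0.27 and -1.22 ± 0.41 (adjusted p = 5.49e-08 and 8.79e-09), and that with IFG was -0.51 ± 0.37. Smc2, a condensin subunit, gave -0.44, -0.93 and -0.52 with LPS+IFG (adjusted p = 9.98e-05) and means of -0.27 with LPS and -0.29 with IFG that did not pass. It depended on the dye: with LPS+IFG the mean on the Cy3 arrays was -0.16 (adjusted p = 0.462). Smc4, its partner, fell to -0.73 ± 0.098 (n = 2) and the topoisomerase gene Top2a to -0.55 ± 0.22 with LPS+IFG. Smc4 lacked replicate 2 there and at 4 h of LPS, IFG and 2MA.

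Cytokinesis was represented by Ect2, the exchange factor that activates RhoA at the cleavage site, and Racgap1, its centralspindlin partner. Ect2 gave -1.41, -1.22 and -1.17 with LPS+IFG, -1.29, -1.01 and -0.97 with LPS+2MA, -0.89, -0.81 and -0.80 with LPS and -0.71, -0.82 and -0.42 with IFG. The 3 LPS values lay close together, above all 3 LPS+IFG values. Its LPS+IFG mean was -1.27 ± 0.13 (adjusted p = 4.58e-12). Racgap1 gave -1.53, -0.51 and -0.57 with LPS+IFG, while LPS+2MA gave -1.33, -1.13 and -0.78. Replicate 1 was far below the others with LPS+IFG. Racgap1 fell with both (adjusted p = 3.06e-05 and 8.33e-07), but on the Cy5 arrays alone the means were -0.37 and -0.35 and neither passed.

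**Figure D3:**
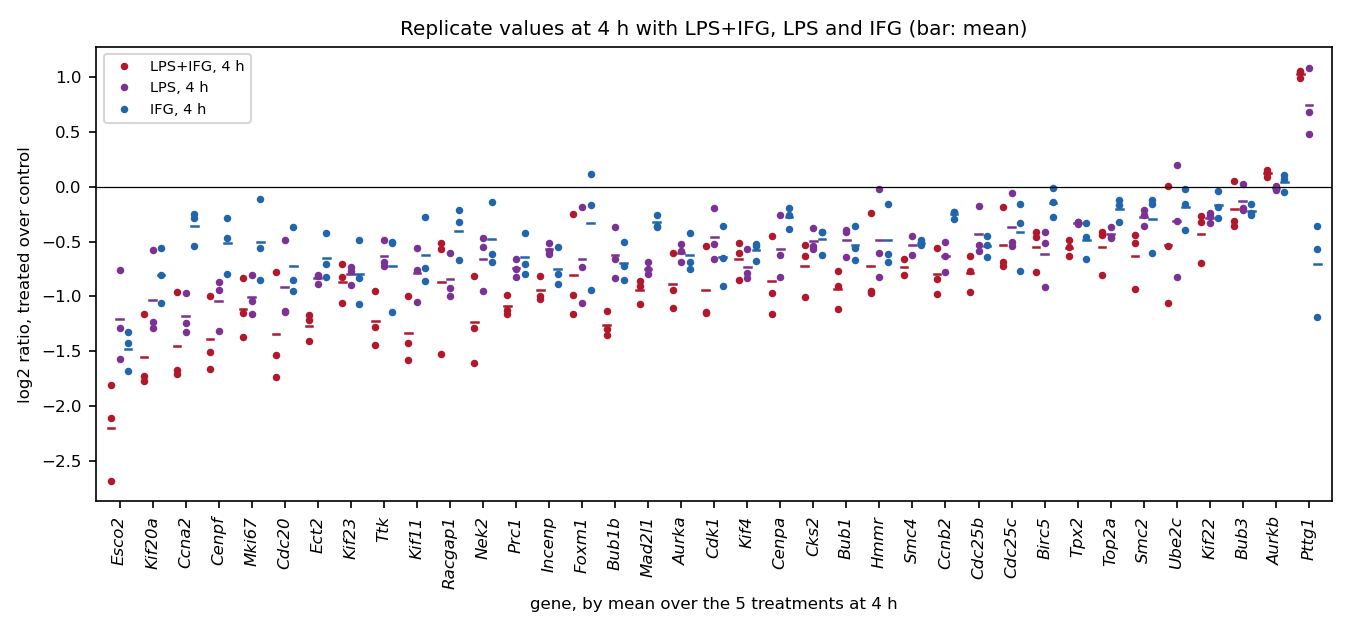
Log2 ratio of treated over untreated RNA in each replicate (points) with the mean (bars) at 4 h of LPS+IFG, LPS and IFG, for the 37 genes ordered by their mean over the 5 treatments at 4 h. Esco2 lies at the left end, between -2.68 and -1.81 with LPS+IFG, and Pttg1 at the right end, above 0 with LPS+IFG and LPS and below 0 with IFG.

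The falls built up between 1 and 4 h. At 1 h, 3 members fell with LPS+IFG (2.96% of all features), 3 with LPS+2MA (1.92%), 3 with LPS (2.35%), and 0 with IFG (0.103%) or 2MA (0.552%). At 2 h, 24 fell with LPS+IFG (10.6%), 16 with LPS+2MA (8.81%), 13 with LPS (7.79%), and 0 with IFG (0.586%) or 2MA (0.25%). None rose at 1 h, when 4.3%, 3.44%, 3.04%, 0.966% and 0.716% of all features did with LPS+IFG, LPS+2MA, LPS, IFG and 2MA, or at 2 h, when 9.68%, 8.34%, 7.59%, 2.69% and 0.983% did (limma; at an unadjusted p under 0.05, 1 rose with 2MA at 1 h and 0 elsewhere). At an unadjusted p under 0.05, 0 and 2 fell with IFG at 1 and 2 h, and 2 and 4 with 2MA. All 24, 16 and 13 members that fell at 2 h also fell at 4 h, when 10, 17 and 19 joined them with LPS+IFG, LPS+2MA and LPS, and 26 did with IFG. The 1 h count was 1 for LPS without replicate 1, and 1 for LPS+2MA without replicate 1 or replicate 2. The 2 h count for LPS was 3 without replicate 1, 7 without replicate 2, and 5 both on the Cy3 arrays alone and with only the LPS replicates fitted. That for LPS+2MA was 8 without replicate 1 and 10 without replicate 2.

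The change over time was tested directly as 4 h less 1 h. It was below 0 for 30 members with LPS+IFG (9.37% of all features), 28 with LPS+2MA (9.3%), 20 with LPS (6.8%), 13 with IFG (1.72%) and 0 with 2MA (0.147%; at an unadjusted p under 0.05, 2). Esco2 moved by -2.21, SE 0.25 with LPS+IFG (adjusted p = 1.32e-08) and by -1.54, SE 0.25 with IFG (adjusted p = 5.54e-05). Cenpf moved by -1.45, SE 0.22 with LPS+2MA (adjusted p = 4.69e-06). The IFG count was 7 without IFG replicate 1 at 1 h, and 8 and 6 without replicates 1 and 2 at 4 h.

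A few members moved at once. Hmmr, for a microtubule-binding hyaluronan receptor, gave -0.80, -0.86 and -0.46 at 1 h of LPS+IFG, -0.69, -0.70 and -0.29 with LPS+2MA and -0.58, -0.53 and -0.40 with LPS. It fell in all 3 (adjusted p = 0.000824, 0.0136 and 0.0332), and its mean with LPS+IFG, -0.71 at 1 h, was -0.46 at 2 h and -0.72 at 4 h. These Hmmr values average 2 probes that differed at 4 h and were not compared at 1 h. Cdc25b, for the phosphatase that first activates Cdk1, fell at 1 h with LPS+IFG (-0.35 ± 0.19, adjusted p = 0.0147) and LPS+2MA (-0.37 ± 0.082, adjusted p = 0.0108). Ttk passed at 1 h of LPS from 2 replicates that lay far apart (-0.97 and -0.22).

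Pttg1 reversed. At 1 h it gave -0.61, -0.83 and -0.98 with LPS+IFG, -0.82, -0.78 and -0.93 with LPS+2MA and -0.52, -0.95 and -0.90 with LPS, and all 18 arrays were below 0. It fell in all 3 (adjusted p = 9.91e-05, 7.24e-05 and 0.000228), to 57.2%, 55.8% and 57.8% of the untreated level. From 1 to 2 to 4 h the LPS+IFG mean was -0.81, -0.32 and 1.03. The 4 h less 1 h difference was 1.84, SE 0.20 with LPS+IFG, 1.72, SE 0.20 with LPS+2MA and 1.54, SE 0.20 with LPS (adjusted p = 1.09e-08, 3.07e-08 and 4.04e-07). No other member rose over time with these treatments. At 1 h Pttg1 was also the one member that differed from IFG alone: the difference was -0.77, SE 0.20, in LPS+IFG less IFG and -0.75, SE 0.20, in LPS less IFG (0.681% and 0.914% of all features were lower), and no member was higher (1.65% and 1.47%). At the same time 0 members differed in LPS+2MA less 2MA (0.172% lower and 1.16% higher) or LPS less 2MA (0.44% and 0.974%), and at an unadjusted p under 0.05 1 and 2 were lower in limma. With the replicate block, 1 member was lower in LPS+2MA less 2MA (0.853% of all features) and 1 in LPS less 2MA (1.65%), and 2 were in LPS+IFG less IFG (1.55%) and 2 in LPS less IFG (2.08%).

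**Figure D4:**
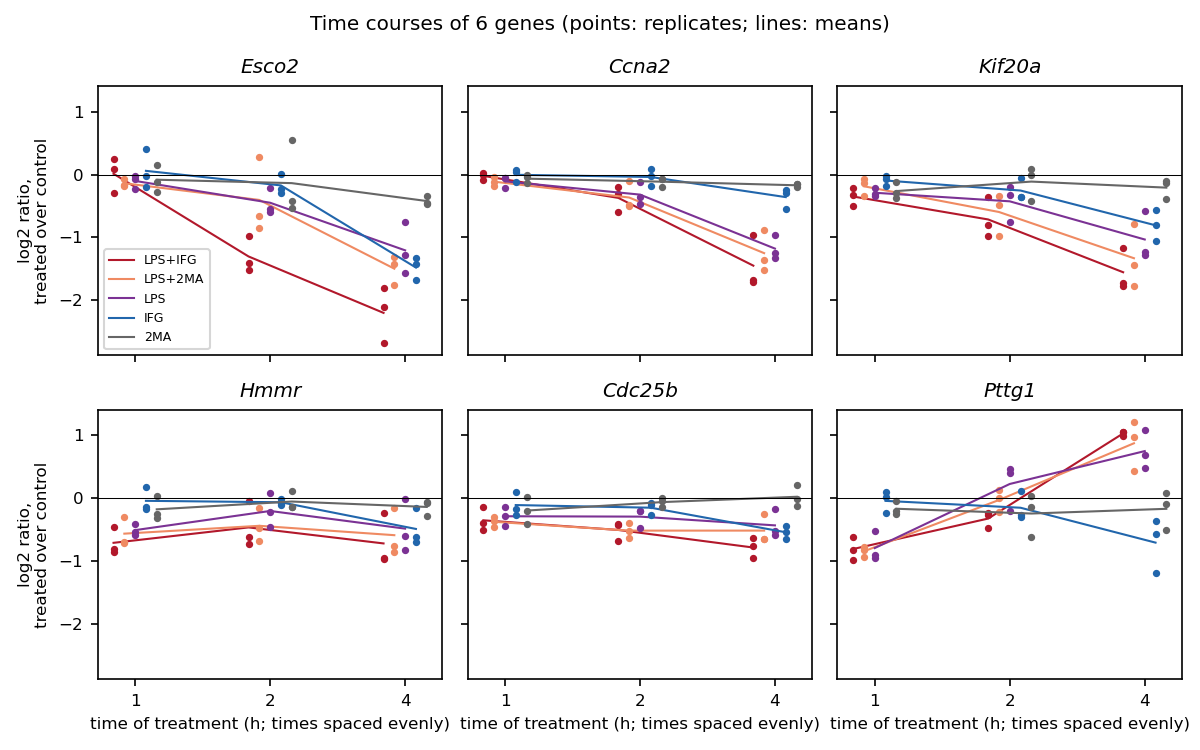
Log2 ratio of treated over untreated RNA at 1, 2 and 4 h (spaced evenly) for 6 genes, with points for replicates and lines through the means of each treatment. Esco2, Ccna2 and Kif20a go down towards 4 h, Hmmr and Cdc25b are already below 0 at 1 h with LPS+IFG and LPS+2MA, and Pttg1 goes from below to above 0 in the 3 treatments with LPS.

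Whether IFG adds to LPS was tested as LPS+IFG less LPS. Here same-numbered sets deviated together, so the fit with the set as a replicate block is given beside the one without it. At 4 h, 2 members were lower with LPS+IFG than with LPS (1.41% of all features) and 12 with the block (3.85%). None was higher at 4 h (2.46%, and 4.41% with the block) or at 1 h (0.922%). At 2 h, 1 was lower (0.621%) and 8 with the block (2.21%), and at 1 h 0 in both (0.0431% and 0.155%; at an unadjusted p under 0.05, 0). Bub1b differed by -0.64, SE 0.11 at 4 h (adjusted p = 7.61e-05) and by -0.39, SE 0.11 at 2 h (adjusted p = 0.0346), and Esco2 by -0.995, SE 0.25 at 4 h (adjusted p = 0.0123). With the block the 4 h list also held Cdk1, Cdc25b, Nek2, Bub1, Ttk, Kif20a, Kif11, Prc1, Incenp and Ect2. In a fit of the compared replicates alone no member passed at 2 or 4 h, and with the spread of arrays scaled to be equal 1 did at 4 h and 0 at 2 h. The 4 h count was 1 without LPS replicate 2 and 5 without LPS+IFG replicate 3. At 2 h it was 0 without LPS replicate 1 or 3 or LPS+IFG replicate 1, and 2 without LPS+IFG replicate 3. Lipid binding protein, listed for LPS alone, cannot be told apart from the absence of IFG in this comparison.

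Against IFG alone, LPS+IFG was lower in 12 members at 4 h (4.88% of all features) and higher in 1, Pttg1 (5.74%), and lower in 19 with the block (9.56%). Ccna2 lay furthest below, by -1.09, SE 0.15 (adjusted p = 2.17e-06), and Pttg1 by 1.74, SE 0.20 (adjusted p = 8.08e-08). The count was 2 with the spread scaled, 6 with the compared replicates alone, and 5 without IFG replicate 3 or without LPS+IFG replicate 1. At 2 h LPS+IFG was lower in 9 (3.69%), or 22 with the block (7.19%), among them Kif23 (-1.09, SE 0.19) and Ect2 (-0.84, SE 0.16).

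LPS and IFG alone differed in few members. At 4 h LPS was lower in 4 (4.42% of all features) and higher in 1, Pttg1 (5.1%). With the block it was lower in 6 (8.44%). At 2 h 0 members passed in limma (3.22% of all features were lower and 3.47% higher; at an unadjusted p under 0.05, 7 members were lower), and 7 were lower with the block (7.04%). The 4 were Ccna2 (-0.82, SE 0.15, adjusted p = 0.000193), Ccnb2 (-0.38, SE 0.13), Mad2l1 (-0.42, SE 0.11) and Birc5 (-0.47, SE 0.14). The count was 1 or 2 in single dye orientations, with 1 probe per gene, with the spread scaled or with the compared replicates alone. It was also 2 without LPS replicate 2 or IFG replicate 3, and 1 without IFG replicate 1.

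No member passed the test of whether 2MA adds to LPS. In LPS+2MA less LPS 0 members were lower at 1, 2 or 4 h (0%, 0% and 0.0603% of all features) and 0 were higher (0.0776%, 0.0603% and 0.259%). At an unadjusted p under 0.05, 0, 0 and 1 were lower and 1, 1 and 1 higher in limma. With the block Bub1b was higher with LPS+2MA at 4 h (0.31, SE 0.084, adjusted p = 0.0419). Here too, lipid binding protein, listed for LPS alone, cannot be told apart from the absence of 2MA. Against 2MA alone, LPS+2MA was lower in 24 members at 4 h (8.57%), led by Cenpf (-1.24, SE 0.22, adjusted p = 5.85e-05), and LPS was lower than 2MA in 17 (7.15%), or 24 with the block (12.2%). Pttg1 was higher in both comparisons, by 1.04, SE 0.20 in LPS+2MA less 2MA and 0.92 in LPS less 2MA (8.65% and 7.09% of all features were higher). At 2 h LPS+2MA was lower than 2MA in 2 members, Cdc25b and Kif23 (1.79% of all features), and in 8 with the block (4.96%). The 4 h counts were 13 and 9 with the spread scaled. Without 2MA replicate 3 they were 14 and 8. The first was 12 and 14 without LPS+2MA replicates 1 and 2, and the second 8 and 10 without LPS replicates 1 and 2.

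Each combination was also set against what its 2 components would add up to on the log2 scale. At 4 h of LPS+IFG 0 members lay below the sum (1.78% of all features) and 1, Pttg1, above it (0.716%), by 0.99, SE 0.25 (adjusted p = 0.0193). At an unadjusted p under 0.05, 0 lay below and 3 above. With the block 2 lay above it (1.54%) and 0 below (2.75%). The median of the 37 departures was 0.19, and it was not tested. The Pttg1 call was lost with the spread scaled, on the Cy3 arrays alone, with the compared replicates alone, and without LPS replicate 1 or 3, IFG replicate 1 or LPS+IFG replicate 1. For LPS+2MA 0 members departed at 4 h (0.0345% below and 0.0172% above; at an unadjusted p under 0.05, 1). Both sums take LPS alone, listed with lipid binding protein, while the combinations are listed without it. A departure from the sum cannot be told apart from that difference.

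A further list of mitotic genes behaved in a similar direction. Of 90 listed, 54 were tested, and 34 fell and 5 rose with LPS+IFG at 4 h (median -0.53), 33 fell and 2 rose with LPS+2MA (-0.41), 29 and 1 with LPS (-0.36), 21 and 0 with IFG (-0.29), and 2 and 0 with 2MA (-0.13). Fbxo5, for the APC/C inhibitor Emi1, was the lowest with LPS+IFG (-2.18 ± 0.33, adjusted p = 1.21e-13), with LPS (-1.62 ± 0.29, n = 2) and with IFG (-1.06 ± 0.18). The spindle pole gene Aspm stood at -1.83 ± 0.48 with LPS+IFG, and Wee1, the kinase that holds Cdk1 inactive, at -1.28 ± 0.087 with LPS. The highest was Ensa, a phosphatase inhibitor of mitosis, at 0.52 ± 0.22 with LPS+IFG (adjusted p = 0.00673). Of all features at 4 h, 18.5% fell and 14.9% rose with LPS+IFG, 18.1% and 14.7% with LPS+2MA, and 15.5% and 12.5% with LPS. With IFG the shares were 5.68% and 6.11%, and with 2MA 0.534% and 1.31%. They stand beside the counts of this list and of the regulators that follow. Of 13 tested regulators of this programme, 6 fell and 1 rose with LPS+IFG, 5 and 1 with LPS+2MA, 5 and 0 with LPS, 4 and 0 with IFG, and 0 with 2MA (limma; 4 lower at an unadjusted p under 0.05). The pocket protein gene Rbl2, a DREAM component that represses late cell cycle genes, was lowest (-1.47 ± 0.17 with LPS+IFG, -1.02 ± 0.23 with LPS), and Mybl2, which activates them, fell with LPS+IFG (-0.88 ± 0.18) and IFG (-0.48 ± 0.19). Rbl1, the relative of Rbl2, rose with LPS+IFG (0.45 ± 0.29, adjusted p = 0.00841).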

How the data were processed

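RNA of treated and untreated RAW 264.7 cells was compared on 90 dual-colour custom Agilent arrays. Per array, the authors deposited a log2 ratio between the channels for every probe, already centred, to judge by the values: every array had a median of 0, and no ratio exceeded 100-fold. Scanner, background correction and further steps are not given in the sources used here. Depth does not apply, and the number of arrays limits the precision.

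Exact zeros, 7.84% to 17.0% of an array's 16281 probes, were treated as missing. Arrays were turned to treated over untreated, and the 2 dye orientations of a set were averaged into 1 replicate (both had to be measured). Probes with values in at least 2 replicates of every condition were kept (13711), named through GEO's platform annotation and RefSeq (GRCm38.p6; 99.7% of gene IDs matched), and averaged per gene. Probes annotated to several genes (52) named none. limma 3.58.1 (R 4.3.3) fitted a mean for each of 15 conditions over all 45 replicates, and 44 comparisons were tested, each with Benjamini-Hochberg adjustment over 11600 features. The fit was tested on simulated data. Single dye orientations, a dye term, zeros kept, other filters, scaled spread, 1 probe per gene, a replicate block, fewer conditions and each replicate left out were tried as alternatives.

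Within a time, the set number paired samples, as the labels give the same numbers in each condition: in 86 of 90 pairs of same-numbered sets the deviations had a correlation over 0.1 (median 0.433) and in every pair in 26 of 30 comparisons. The block fit therefore stands beside results that it changes. No pair of arrays was identical. Dye-swapped arrays, with each probe centred over all arrays, correlated negatively in 45 of 45 pairs (37 before centring, with a highest correlation of 0.396), and arrays of 1 orientation correlated at 0.160 or above.

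Values in every replicate are given for the 15 members that passed with a 2-fold change in any condition, and for the member with the lowest and the one with the highest mean at 4 h in each role. Of the other lists, genes were named among the 3 lowest and the 3 highest that passed. The members, the other gene lists and the rule were chosen with earlier results of these data known. Figures were drawn with Python 3.11.15 and matplotlib 3.10.9.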

Additional observations from a re-analysis of the deposited data

Results flagged for a closer look

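Differences between treatments within a time, and between times within a treatment, were tested directly in limma, and several members differed. At 1 h, 1 member, Pttg1, differed in LPS+IFG less IFG (0.681% of all features lower, 1.65% higher). In LPS less IFG it was 1, again Pttg1 (0.914%, 1.47%). At 2 h, 1 member differed in LPS+IFG less LPS (0.621% of all features lower, 1.91% higher). For LPS+IFG less IFG the count was 9 (3.69%, 3.94%), and for LPS+2MA less 2MA 2 (1.79%, 3.04%). At 4 h, 2 differed in LPS+IFG less LPS (1.41% of all features lower, 2.46% higher) and 13 in LPS+IFG less IFG (4.88%, 5.74%). At that time 25 differed in LPS+2MA less 2MA (8.57%, 8.65%), 5 in LPS less IFG (4.42%, 5.1%) and 18 in LPS less 2MA (7.15%, 7.09%). In 4 h less 1 h, 31 differed with LPS+IFG (9.37% of all features lower, 8.62% higher) and 29 with LPS+2MA (9.3%, 8.56%). With LPS 21 differed (6.8%, 6.96%), and with IFG 13 (1.72%, 2.73%). Pttg1 alone differed upwards: by 1.74 in LPS+IFG less IFG, 1.46 in LPS less IFG, 1.04 in LPS+2MA less 2MA and 0.92 in LPS less 2MA at 4 h, and in 4 h less 1 h by 1.84 with LPS+IFG, 1.72 with LPS+2MA and 1.54 with LPS.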

How the results depend on the processing

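The falls at 4 h held: without 1 replicate, 33 to 34 members fell with LPS+IFG, 29 to 33 with LPS+2MA, 27 to 31 with LPS and 18 to 26 with IFG. Of 473 alternative counts 385 stayed within 1.5 times of the count given, and of 1350 alternative values of named members 0 changed sign while called, 57 lost and 14 gained a call. Counts that were 0 and stayed 0 are among the 385. Causes of the changes below were not tested.

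With the replicate block, 8 members were lower in LPS+IFG less LPS at 2 h and 12 at 4 h, 19 in LPS+IFG less IFG at 4 h, and 2 departed from the sum with LPS+IFG at 4 h. The block changed no other count named in this paragraph or the next by over 1.5 times. With single arrays (90) and a dye term, 1, 1 and 2 members fell with 2MA at 1, 2 and 4 h, 1 with IFG at 2 h and 21 in IFG 4 h less 1 h, 5 and 8 were lower in LPS+IFG less LPS at 2 and 4 h, and 2 (LPS+IFG) and 1 (LPS+2MA) departed from the sum at 4 h. With treated RNA in Cy5 only, 7 fell with LPS+IFG, 5 with LPS+2MA, 5 with LPS and 3 with 2MA at 1 h, 5 with IFG and 4 with 2MA at 2 h, and 6 with 2MA at 4 h. There, 8 were lower in LPS less 2MA, 2 in LPS less IFG, 11 in LPS+2MA less 2MA and 7 in IFG 4 h less 1 h. With Cy3 only, 1 and 5 fell with LPS at 1 and 2 h, 1 and 2 with 2MA at 2 and 4 h, 7 were lower in IFG 4 h less 1 h, 2 in LPS less IFG at 4 h, 0 in LPS+IFG less LPS at 2 h, and 0 departed from the sum with LPS+IFG. With only the compared conditions fitted, which leaves fewer samples, 13 fell with LPS+IFG, 8 with LPS+2MA and 5 with LPS at 2 h, and 0 with 2MA at 4 h. That fit gave 6 lower in LPS+IFG less IFG, 14 in LPS+2MA less 2MA, 11 in LPS less 2MA and 1 in LPS less IFG at 4 h, 0 in LPS+IFG less LPS at 2 and 4 h, and 0 departures from the sum with LPS+IFG. With the spread scaled, 2 were lower in LPS+IFG less IFG, 13 in LPS+2MA less 2MA, 9 in LPS less 2MA and 1 in LPS less IFG at 4 h, 0 and 1 in LPS+IFG less LPS at 2 and 4 h, and 0 departed from the sum. LPS+IFG less LPS at 2 h gave 2 with zeros kept or with no filter and 0 with 1 probe per gene, which gave 1 in LPS less IFG at 4 h.

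Without 1 replicate, counts ran from 1 to 2 for LPS at 1 h, 3 to 9 for LPS at 2 h, 1 to 3 and 8 to 17 for LPS+2MA at 1 and 2 h, and 0 to 1 for 2MA at 4 h. They ran from 0 to 2 and 1 to 5 for LPS+IFG less LPS at 2 and 4 h, 5 to 16 for LPS+IFG less IFG, 12 to 25 for LPS+2MA less 2MA, 1 to 4 for LPS less IFG and 8 to 16 for LPS less 2MA at 4 h, 0 to 1 for both departures from the sum, and 6 to 15 for IFG 4 h less 1 h.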

Other observations

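Genes of the step before, entry into S phase and DNA replication, also fell. Of 48 tested of 58 listed, 37 fell and 2 rose with LPS+IFG at 4 h (median -0.60), 35 and 1 with LPS+2MA (-0.52), 34 and 2 with LPS (-0.46), 17 and 1 with IFG (-0.29) and 0 with 2MA (-0.20; limma, with 17 lower at an unadjusted p under 0.05). The thymidine kinase gene Tk1 stood at -1.53 ± 0.14 with LPS+IFG (adjusted p = 5.47e-16), the replication licensing inhibitor Gmnn at -1.50 ± 0.42 and the ribonucleotide reductase subunit gene Rrm2 at -1.44 ± 0.14. With IFG the lowest were Gins3 (-1.09 ± 0.24), Cdc6 (-0.90 ± 0.092) and Rrm2 (-0.86 ± 0.21). The polymerase alpha subunit gene Pola2 rose with LPS+IFG (0.61 ± 0.24, adjusted p = 4.15e-05), LPS (0.37 ± 0.22) and IFG (0.34 ± 0.16), and Mcm10, a replication initiation factor, rose with LPS+IFG (0.38 ± 0.35) and LPS (0.69 ± 0.43). Of all features at 4 h, 18.5% fell and 14.9% rose with LPS+IFG, 18.1% and 14.7% with LPS+2MA, and 15.5% and 12.5% with LPS. With IFG the shares were 5.68% and 6.11%, and with 2MA 0.534% and 1.31%.

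Of 16 tested cyclins and Cdk inhibitors of G1, 6 fell and 2 rose with LPS+IFG at 4 h (18.5% and 14.9% of all features), 9 and 3 with LPS+2MA (18.1% and 14.7%), 6 and 3 with LPS (15.5% and 12.5%), 4 and 1 with IFG (5.68% and 6.11%), and 0 changed with 2MA (0.534% and 1.31%; limma, with 0 at an unadjusted p under 0.05). Cdkn2c, for the Cdk4 and Cdk6 inhibitor p18, fell to -1.35 ± 0.20 with LPS+IFG and -1.32 ± 0.28 with LPS. The cyclin E2 gene Ccne2 fell to -0.93 ± 0.24 with LPS+IFG, -1.02 ± 0.12 with LPS and -0.62 ± 0.24 with IFG. The cyclin D2 gene Ccnd2 rose to 1.70 ± 0.57 with LPS+IFG (adjusted p = 4.93e-08) and 0.77 ± 0.41 with LPS, and Cdk6 to 0.92 ± 0.21 and 0.80 ± 0.11. Cdkn1a, for the inhibitor p21, rose with LPS (0.38 ± 0.24, adjusted p = 0.0377) and IFG (0.46 ± 0.19, adjusted p = 0.022). It was not among the 2 genes that rose with LPS+IFG. These gene lists were drawn up with earlier results of these data known.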
